A study of Caenorhabditis elegans with 12 samples.

Results

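F47D12.6 is a protein-coding gene on chromosome III of the nematode Caenorhabditis elegans, named by a genomic clone and a gene number. It was described together with 7 genes that adjoin it in the gene order of the RefSeq annotation (assembly WBcel235). The 8 genes were taken by symbol from the annotation of the array's probe sets, the groups of short probes that measure a transcript. They have 11 probe sets, of 22548 tested, and are 8 of 17138 genes paired with a probe set of 1 symbol. The 8 genes were chosen for their genotype differences at each heme level and on each array number, so those differences are described here without a test.

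Total RNA of worms harvested in the middle or late part of L4, the larval stage that precedes the adult, was measured on 12 Affymetrix arrays in 4 groups of 3. The groups are wildtype at 4 µM heme, hrg-2 mutant at 4 µM heme, wildtype at 20 µM heme and hrg-2 mutant at 20 µM heme. The labels name no allele, strain or outcross for the mutant. Apart from the stage and the presence of heme, at 4 or 20 µM, they name nothing that all groups carry in common. The values are the authors' RMA values (robust multi-array average, a summary of the probes of a set) on a log2 scale, 1 per probe set and array. The precision of every value is limited by the number of arrays, and whether a group's 3 arrays stand for independent worm cultures is not stated in the labels.

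C. elegans makes no heme and takes it up from its surroundings, and HRG-2 is a protein of the hypodermis with a role in heme utilization. Genes lie close together on worm chromosomes, and adjacent genes may overlap or be transcribed together as an operon. Of the genes described here, hmg-1.2 encodes a protein with HMG boxes, which bind and bend DNA, and it is known to act in Wnt signalling in the worm. The hrg-2 gene itself lies on chromosome V in the same annotation, and 0 probe sets were paired with it, so its own level was not analysed here.

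In the annotation's order the 8 genes run without interruption: C18F10.2, C18F10.7, hmg-1.2, gadr-3, F47D12.6, F47D12.7, F47D12.3 and F47D12.9. All 8 symbols were found there. The annotated spans of hmg-1.2 and gadr-3 overlap, as do those of F47D12.3 and F47D12.9, so signal assigned to the members of either pair is uncertain where probes fall in the shared stretch. Probe sets whose names end in _s_at can match more than 1 transcript, which applies to C18F10.7, F47D12.7, 2 of the 3 probe sets of hmg-1.2 and 1 of the 2 of F47D12.9. The sources used here give no genome positions for the probes, so no coordinates are printed.

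Arrays numbered 3 in the titles stood apart from numbers 1 and 2 in every group. The limma contrast of number 3 with the other numbers called 6789 of the 22548 probe sets, and all 23 measured sperm marker genes were higher on number 3 in 3 of the groups (21 of 23 in the mutant at 20 µM). The median shift of the sperm markers was 2.30 log2 units in wildtype and 4.38 in the mutant at 4 µM, and 1.94 and 1.67 at 20 µM. Most of these markers, the msp and gsp genes, have probe sets whose names end in _x_at. Such probe sets can match related genes, so the 23 are not separate measurements. In whole animals, more cells of a type and more RNA per cell cannot be told apart. Results below that rest on number 3 are given with and without it.

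F47D12.6 (probe set 187668_at) was present in wildtype and at the bottom of the signal range in the mutant. In wildtype at 4 µM heme the log2 values were 9.12, 9.32 and 8.36 on the arrays numbered 1, 2 and 3, and in the mutant they were 2.79, 2.54 and 2.88. At 20 µM heme they were 8.95, 9.25 and 8.63 in wildtype and 2.71, 2.98 and 2.48 in the mutant. All 6 mutant arrays therefore lay more than 5 log2 units below all 6 wildtype arrays, whichever heme level and array number were set against each other.

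The group means of F47D12.6 were 8.93 ± 0.51 and 8.94 ± 0.31 in wildtype and 2.74 ± 0.18 and 2.72 ± 0.25 in the mutant (SD, n = 3, at 4 and 20 µM). The differences, mutant minus wildtype, were -6.20 ± 0.27 and -6.22 ± 0.27 log2 units (SE from the fit to all arrays), or 73.4-fold and 74.4-fold. By array number the differences were -6.34, -6.78 and -5.48 at 4 µM and -6.23, -6.27 and -6.15 at 20 µM. Averaged over heme levels, no other probe set of the 22548 had a difference as large in size. On the mutant arrays between 3.89% and 15.58% of all probe sets had lower values than F47D12.6, and the lowest values on any array were 1.76 to 1.92, so the bottom of the range limits the fold. Without the arrays numbered 3 the differences were -6.56 and -6.25. Raising all values below each array's 5th percentile to it gave -6.17 and -6.20.

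**Figure D1:**
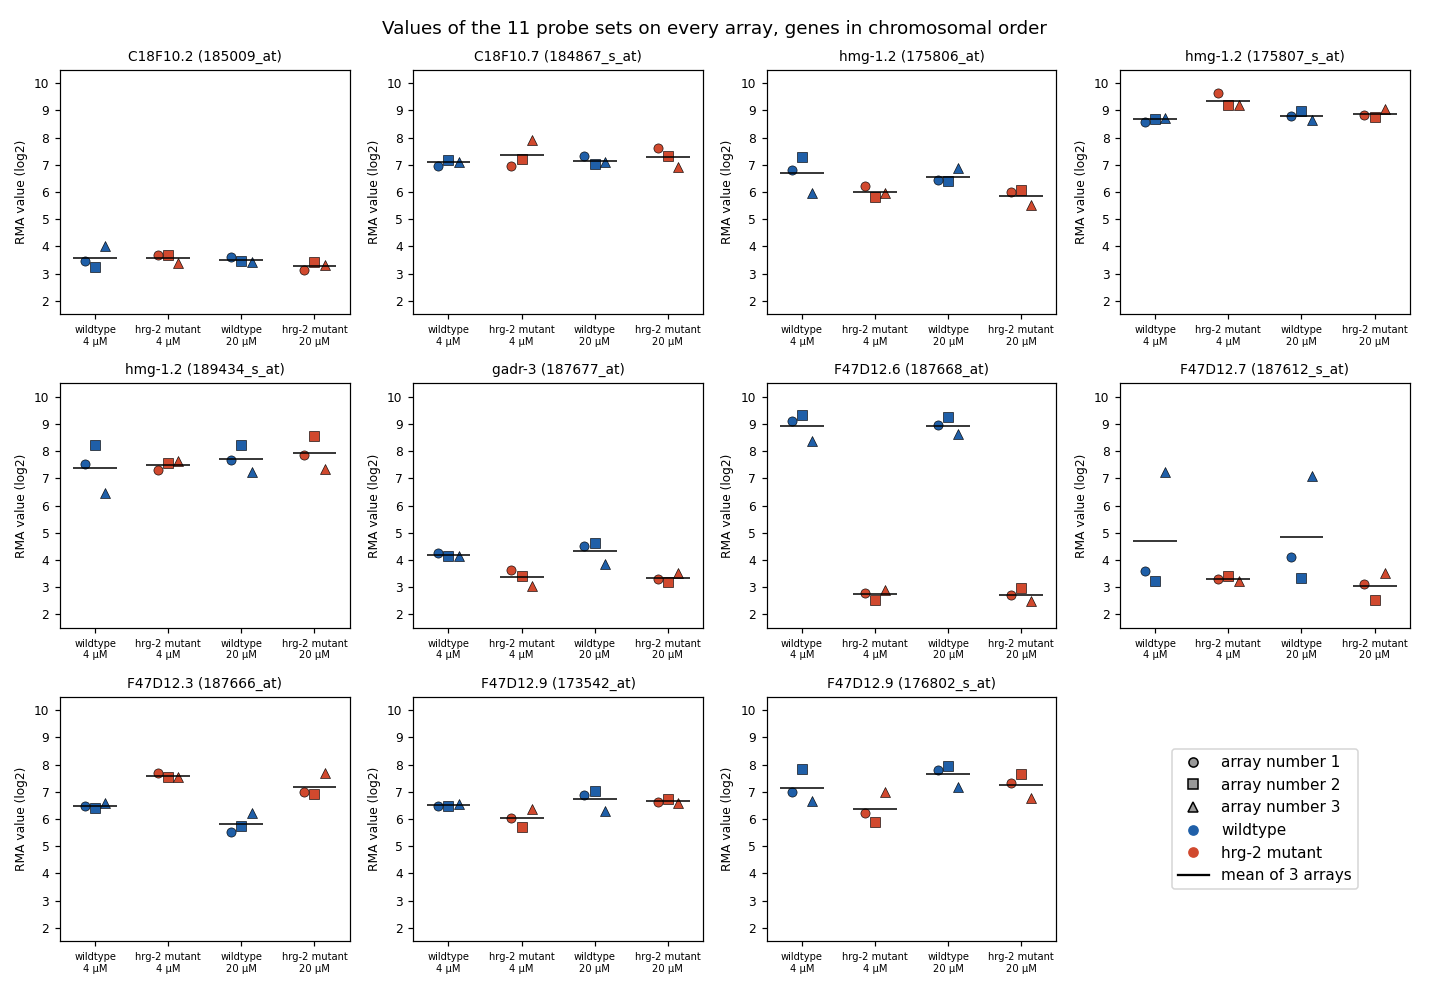
RMA values (log2, y axis) of the 11 probe sets on each of the 12 arrays, by group (x axis). Circles, squares and triangles are arrays numbered 1, 2 and 3, blue is wildtype, red is hrg-2 mutant, and lines are means of 3 arrays. F47D12.6 lies at 8.36 to 9.32 in wildtype and at 2.48 to 2.98 in the mutant, and F47D12.7 stands high only on the 2 wildtype arrays numbered 3, at 7.23 and 7.09.

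F47D12.7 (187612_s_at), the next gene in order after F47D12.6, was high on 2 arrays only, the wildtype arrays numbered 3. In wildtype its log2 values were 3.59, 3.23 and 7.23 at 4 µM and 4.10, 3.34 and 7.09 at 20 µM, on numbers 1, 2 and 3. In the mutant they were 3.29, 3.41 and 3.24 at 4 µM and 3.12, 2.53 and 3.52 at 20 µM, so number 3 there was the lowest of the 3 arrays at 4 µM and the highest at 20 µM, by less than 1 log2 unit in both.

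The genotype differences of F47D12.7 were -3.99 and -3.57 on the arrays numbered 3, against -0.30, 0.18, -0.98 and -0.81 on the remaining 4 pairs. Averaged by heme level they were -1.37 ± 1.10 at 4 µM and -1.79 ± 1.10 at 20 µM (SE), and without number 3 they were -0.06 ± 0.30 and -0.90 ± 0.30. The genotype groups overlapped at both heme levels. The mean difference in the full data thus rests largely on the 2 pairs numbered 3.

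Sperm markers were mostly higher on number 3 in both genotypes, whereas F47D12.7 was high there in wildtype alone. The median log2 value of the 23 markers in wildtype was 9.43, 8.30 and 11.25 at 4 µM and 9.18, 9.42 and 11.25 at 20 µM, on numbers 1, 2 and 3. In the mutant it was 7.24, 7.33 and 12.11 at 4 µM and 10.24, 8.96 and 11.95 at 20 µM. At 4 µM every one of the 23 markers was higher on the mutant array numbered 3, by 1.29 to 6.06 log2 units, while F47D12.7 differed by -0.11. At 20 µM the markers ran from -0.73 to 3.03 in the mutant, and the 0.70 of F47D12.7 lay inside that range. There spe-44 (-0.73), spe-4 (-0.47) and spe-38 (0.40) shifted less than F47D12.7, and in wildtype the same 3 markers shifted by 0.70 to 1.86, less than F47D12.7. Summed over the 23 markers on a linear scale, the signal ran from 4471 to 93140 on the mutant arrays at 4 µM, from 9617 to 66218 in wildtype at 4 µM, from 15397 to 84637 in the mutant at 20 µM and from 16143 to 62249 in wildtype at 20 µM. Their part in the F47D12.7 result was not tested.

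**Figure D2:**
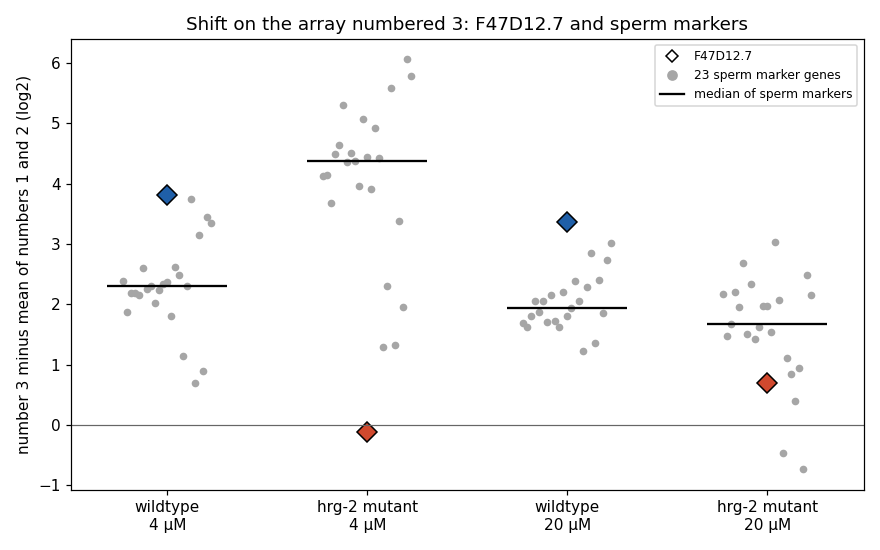
Shift on the array numbered 3, as its log2 value minus the mean of numbers 1 and 2 (y axis), in each group (x axis). Diamonds are F47D12.7, grey points the 23 sperm marker genes and lines their medians. F47D12.7 shifts by 3.82 and 3.37 in the 2 wildtype groups against -0.11 and 0.70 in the mutant, where the sperm markers have medians of 4.38 and 1.67.

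A set of probe sets behaving like F47D12.7 in wildtype was drawn up after its values were seen, and is given as a description. In both wildtype groups 353 probe sets (1.57% of those tested) were higher on number 3 by at least 3 log2 units. Averaged over the mutant groups these 353 shifted by a median of 3.66, and F47D12.7 had the lowest mutant shift of them at 0.29, followed by 0.73 for the next. F47D12.7 was the only 1 of the 353 that shifted by less than 1 log2 unit in both mutant groups (0.00443% of all tested), whereas 60 (0.266%) shifted by at least 3 in both. Because the cuts were set with its values known, its place in the set describes the choice, and nothing is read from it.

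**Figure D3:**
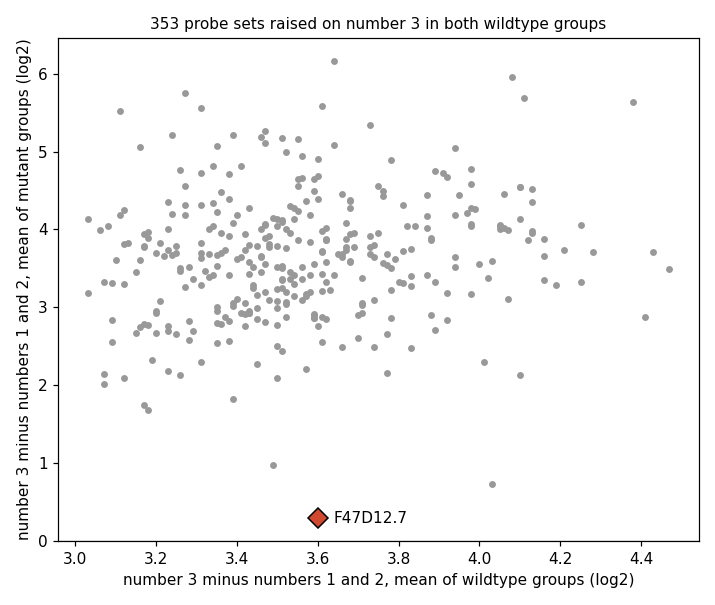
Each point is 1 of 353 probe sets higher by at least 3 log2 units on number 3 in both wildtype groups. The x axis is the mean shift in the 2 wildtype groups and the y axis that in the 2 mutant groups, both log2. F47D12.7 (diamond) lies at 3.60 and 0.29, below the other points. The set was drawn up after its values were seen, so its place describes the choice.

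F47D12.3 (187666_at), the next gene after F47D12.7, was higher in the mutant on every array. Its log2 values in wildtype were 6.49, 6.40 and 6.58 at 4 µM and 5.54, 5.74 and 6.22 at 20 µM. In the mutant they were 7.71, 7.54 and 7.53 at 4 µM and 7.00, 6.91 and 7.68 at 20 µM. No mutant array overlapped a wildtype array, also across heme levels.

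The means of F47D12.3 were 6.49 ± 0.09 against 7.59 ± 0.10 at 4 µM and 5.83 ± 0.35 against 7.20 ± 0.42 at 20 µM (wildtype and mutant, SD, n = 3). The differences were 1.10 ± 0.24 and 1.37 ± 0.24 (SE), a 2.15-fold and a 2.58-fold higher signal, and 1.18 and 1.32 without the arrays numbered 3. In 82 probe sets (0.364% of all) the mean difference was at least as large in size.

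gadr-3 (187677_at), whose systematic name is F47D12.5 and which precedes F47D12.6 in the order, was lower in the mutant on every array. Its log2 values in wildtype were 4.24, 4.14 and 4.14 at 4 µM and 4.53, 4.64 and 3.86 at 20 µM. In the mutant they were 3.64, 3.41 and 3.03 at 4 µM and 3.29, 3.19 and 3.52 at 20 µM. Although all 6 mutant arrays lay below all 6 wildtype arrays, the gap between the highest mutant value (3.64) and the lowest wildtype value (3.86) was narrow beside the largest SD within a group, 0.42.

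The differences of gadr-3 were -0.81 ± 0.24 at 4 µM and -1.01 ± 0.24 at 20 µM (SE), 1.76-fold and 2.02-fold. All 6 same-numbered pairs had the mutant lower, by -0.59, -0.73 and -1.11 at 4 µM and -1.24, -1.46 and -0.34 at 20 µM. Without number 3 the differences were -0.66 and -1.35. In 354 probe sets (1.57%) the mean difference was at least as large in size.

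hmg-1.2, the gene before gadr-3, gave 3 probe sets that disagreed in sign. Probe set 175806_at was lower in the mutant, with wildtype values of 6.80, 7.29 and 5.97 at 4 µM and 6.43, 6.40 and 6.87 at 20 µM. The mutant values of this probe set were 6.24, 5.83 and 5.98 at 4 µM and 6.02, 6.09 and 5.51 at 20 µM. Its differences were -0.67 ± 0.32 at 4 µM, where the groups overlapped, and -0.69 ± 0.32 at 20 µM, where they did not. Without number 3 they were -1.01 and -0.36.

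Probe set 175807_s_at of hmg-1.2 was higher in the mutant at 4 µM, at 9.66, 9.21 and 9.21 against 8.58, 8.70 and 8.73 in wildtype, a difference of 0.69 ± 0.18 with no overlap. At 20 µM it was 8.83, 8.75 and 9.05 against 8.78, 8.97 and 8.65, and the groups overlapped (0.07 ± 0.18). The third probe set, 189434_s_at, overlapped between genotypes at both heme levels (0.11 ± 0.45 and 0.22 ± 0.45), and its sign at 4 µM turned without number 3 (-0.42). No direction can therefore be given for hmg-1.2 as a gene.

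F47D12.9, after F47D12.3 in the order, has 2 probe sets, both with a negative genotype difference. Probe set 173542_at was 6.05, 5.72 and 6.37 in the mutant at 4 µM against 6.48, 6.49 and 6.57 in wildtype (-0.47 ± 0.22), without overlap. At 20 µM it was 6.61, 6.74 and 6.60 against 6.87, 7.03 and 6.30, and the groups overlapped (-0.08 ± 0.22). On the pair numbered 3 at 20 µM the sign of this probe set was positive (0.30). Without number 3 its differences were -0.60 at 4 µM and -0.27 at 20 µM. Probe set 176802_s_at differed by -0.78 ± 0.39 and -0.41 ± 0.39, with overlap at both heme levels, and on the pair numbered 3 at 4 µM its sign was positive (0.35). Without number 3 it differed by -1.35 and -0.40.

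C18F10.7 (184867_s_at) and C18F10.2 (185009_at), the farthest of the 8 genes on the other side, had overlapping groups at both heme levels with all arrays. C18F10.7 ranged from 6.96 to 7.31 in wildtype and from 6.93 to 7.92 in the mutant, with differences of 0.28 ± 0.26 and 0.14 ± 0.26. C18F10.2 ranged from 3.26 to 4.01 in wildtype and from 3.14 to 3.69 in the mutant, with differences of 0.01 ± 0.21 and -0.21 ± 0.21. Without number 3 the differences were 0.01 and 0.29 for C18F10.7 and 0.33 and -0.26 for C18F10.2. The groups of C18F10.2 then did not overlap at either heme level, nor those of C18F10.7 at 20 µM. Fewer arrays separate more easily, so nothing is read from this.

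In all, the genotype groups did not overlap for 5 of the 11 probe sets at 4 µM and for 4 of the 11 at 20 µM, where 9.12% and 6.73% of all probe sets did not overlap. At 4 µM 3 of the 11 were lower and 2 higher in the mutant (4.28% and 4.84% of all), and at 20 µM 3 were lower and 1 higher (3.69% and 3.03%). In 6 of 6 same-numbered pairs the mutant was lower for 2 of the 11 (4.28%) and higher for 1 (2.71%). Over the 12 arrays together 3 of 11 were separate, F47D12.6 and gadr-3 lower and F47D12.3 higher in the mutant, against 0.248% of all probe sets (0.133% lower and 0.115% higher). Since these genes were chosen by this contrast, the counts describe the choice. The median mean difference was -0.27 over the 11 probe sets and 0.02 over all 22548.

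The surrounding stretch of chromosome III, the 15 nearest annotated genes on each side of F47D12.6, holds 12 further genes with a probe set of 1 symbol. Their mean genotype differences ran from -0.26 to 0.42 with a median of 0.10, and 8 were positive and 4 negative. The signs differed by heme level, with 10 positive and 2 negative at 4 µM (median 0.27, range -0.48 to 0.65) and 3 positive and 9 negative at 20 µM (median -0.05, range -0.32 to 0.24). None of the 12 was separate over all arrays, as was 0.248% of all probe sets. The 8 genes were chosen by this contrast and the 12 were not, so the difference between the sets describes the choice.

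The closest measured gene beyond F47D12.9 was gar-2, a muscarinic acetylcholine receptor gene. Its log2 values in wildtype were 4.44, 4.67 and 4.25 at 4 µM and 4.29, 4.41 and 4.14 at 20 µM. In the mutant they were 5.40, 5.13 and 3.78, then 4.30, 4.72 and 3.54, so the genotypes overlapped (0.31 ± 0.41 and -0.09 ± 0.41). On the other side, beyond C18F10.2, the closest measured gene was srg-3, of the srg family of chemoreceptors, with differences of 0.42 ± 0.23 and -0.02 ± 0.23.

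The 6 measured srg genes lay between 1.92 and 3.58 on all arrays, near the 5th percentile of the arrays (2.37 to 2.62), which limits how far a lower level could be seen. Among them srg-9 did not overlap at 20 µM, at 2.91, 2.74 and 3.14 in the mutant against 3.21, 3.28 and 3.26 in wildtype (-0.32 ± 0.21), and it overlapped at 4 µM (0.10 ± 0.21). The largest positive mean differences in the stretch were 0.42 for C56G2.5, 0.25 for srg-8 and 0.20 for srg-3. The largest negative ones were -0.26 for rpn-13, a ubiquitin receptor of the proteasome, -0.16 for C56G2.4 and -0.11 for srg-9. For let-767, a steroid dehydrogenase gene measured at 10.98 to 12.28, the differences were 0.16 ± 0.37 and 0.24 ± 0.37.

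**Figure D4:**
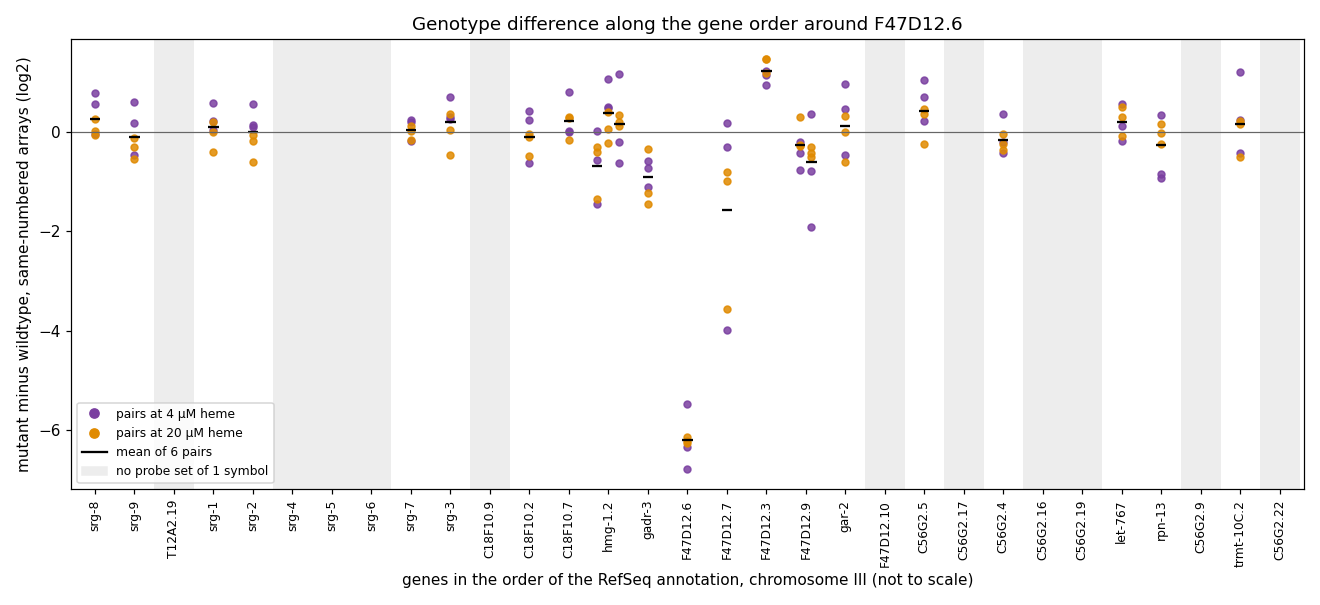
Genotype difference (mutant minus wildtype, log2, y axis) for the 31 annotated genes centred on F47D12.6, in gene order (x axis, not to scale). Points are same-numbered array pairs at 4 µM (purple) and 20 µM (orange), lines their means, and grey columns genes without a probe set of 1 symbol. F47D12.6 lies near -6.21, F47D12.7 has 2 pairs near -3.99 and -3.57, F47D12.3 averages 1.23, and the 12 outer genes average between -0.26 and 0.42.

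The response to heme, 20 minus 4 µM, was not itself used to choose the genes and was fitted with limma on the whole table. Only its average over genotypes is separate from the genotype differences that chose them. The responses within each genotype share arrays with those differences, so their calls and p-values are given as a description. Averaged over genotypes, 0 of the 11 probe sets passed an adjusted p of 0.05, as did 0.0665% of all probe sets (15, all lower at 20 µM), and 3 of the 11 had an unadjusted p under 0.05 (5.28% of all). F47D12.6 differed by 0.00 ± 0.19 (adjusted p 1), F47D12.7 by -0.05 ± 0.77 (1) and gadr-3 by 0.07 ± 0.17 (0.988). Among those under an unadjusted 0.05, F47D12.3 gave -0.53 ± 0.17 (adjusted p 0.891) and the probe sets of F47D12.9 gave 0.41 ± 0.16 (0.938) and 0.68 ± 0.28 (0.942).

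The calls of F47D12.3 and F47D12.9 depended on the arrays numbered 3. On the 8 arrays numbered 1 and 2, F47D12.3 was lower at 20 µM by limma (-0.74 ± 0.13, adjusted p 0.016), and both probe sets of F47D12.9 were higher (0.63 ± 0.13, adjusted p 0.0285, and 0.95 ± 0.20, 0.0289). These 3 of 11 stood beside 8.47% of all probe sets called there. By number, F47D12.3 differed by -0.95, -0.66 and -0.36 in wildtype. In the mutant it differed by -0.71, -0.63 and 0.15, so 5 of 6 pairs were lower at 20 µM. Probe set 176802_s_at of F47D12.9 differed by 0.81, 0.13 and 0.54 in wildtype. The mutant pairs gave 1.09, 1.76 and -0.24.

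Weighting the arrays by their fit called 1 of the 11 for the average, F47D12.3 (-0.69 ± 0.13, adjusted p 0.0395, limma, 1.30% of all), and 2 of the 11 in the mutant, both of F47D12.9 (4.45% of all). In the mutant on numbers 1 and 2 alone F47D12.3 and both probe sets of F47D12.9 were called (14.0% of all). The calls in the mutant share arrays with the genotype differences that chose the genes, so nothing is read from them. With the title number as a block 0 of the 11 were called for the average, wildtype or mutant (0.155%, 0.0665% and 0.0798% of all).

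**Figure D5:**
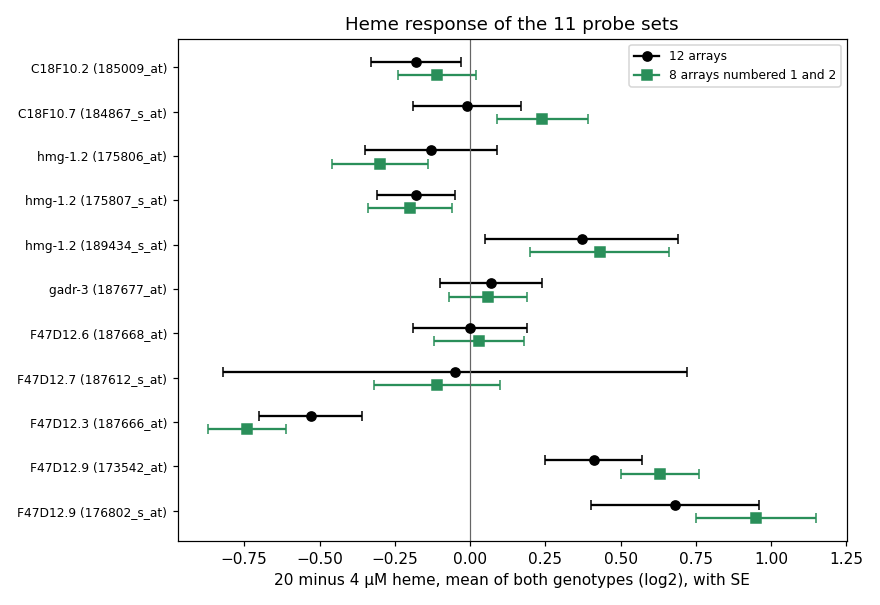
Heme response (20 minus 4 µM, mean of both genotypes, log2, x axis) of the 11 probe sets, with SE, from all 12 arrays (black circles) and from the 8 arrays numbered 1 and 2 (green squares). F47D12.6 lies at 0.00, F47D12.3 at -0.53 and -0.74, and the F47D12.9 probe sets at 0.41 to 0.95.

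Within each genotype the heme response is a description, since it shares arrays with the genotype differences that chose the genes. There 0 of the 11 passed by limma, with 0.0355% of all probe sets called in wildtype and 0.0399% in the mutant. In wildtype 1 of 11 had an unadjusted p under 0.05 (1.39% of all), F47D12.3 (-0.66 ± 0.24, adjusted p 1). In the mutant 3 of 11 had one (6.16% of all), the probe sets of F47D12.9 (0.60 ± 0.22 and 0.87 ± 0.39) and 175807_s_at of hmg-1.2 (-0.48 ± 0.18), each with an adjusted p of 0.799. The response of F47D12.6 was 0.01 ± 0.27 in wildtype, against -0.01 ± 0.27 in the mutant.

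The heme response in the mutant minus that in wildtype equals the genotype difference at 20 µM minus that at 4 µM, values by which the genes were chosen, so it is given without a test. For F47D12.6 it was -0.02 ± 0.38 log2 units (SE), for F47D12.3 0.26 ± 0.34 and for gadr-3 -0.20 ± 0.33. In size it was largest relative to its error for 175807_s_at of hmg-1.2 (-0.61 ± 0.25), whose genotype groups were separate at 4 µM and overlapped at 20 µM.

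The shift on number 3, averaged over the 4 groups, is also a description, since the genes were chosen by array number too. It was 1.95 ± 0.54 for F47D12.7 (SE), the mean of 3.60 in wildtype and 0.29 in the mutant. Leaving out the wildtype array numbered 3 at 4 µM gave 1.32, and leaving out that at 20 µM gave 1.47. F47D12.6 shifted by -0.37 ± 0.17, F47D12.3 by 0.34 ± 0.15 and 189434_s_at of hmg-1.2 by -0.69 ± 0.26.

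By limma 1 of the 11 passed in that contrast, F47D12.7, beside 30.1% of all probe sets (11.4% higher and 18.7% lower), and 3 of the 11 had an unadjusted p under 0.05 (39.5% of all). With array weights 2 of the 11 passed beside 26.8% of all. The genes were chosen by differences on each array number, and those of F47D12.7 rest largely on number 3. These counts therefore describe the choice and are no test of the genes, so nothing is read from them.

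The probe sets most like F47D12.6 over the 12 arrays, by Pearson's r of the log2 values, were sdc-2 (0.923), bre-1 (0.902), its neighbour gadr-3 (0.893), cat-6 (0.880) and W02D7.8 (0.876). sdc-2 acts in sex determination and dosage compensation, and bre-1 in the synthesis of the sugars of glycolipids. Their mean genotype differences were only -0.60 to -0.98, against -6.21 for F47D12.6, and the arrays fall into 2 clusters by genotype that set these values. Within the 8 genes, F47D12.3 had an r of -0.878 with F47D12.6.

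After the group means were removed, the likest were fat-2, a fatty acid desaturase gene (0.985), spe-48, which functions in sperm (0.982), C09G9.1 (0.979), F41H10.3 (0.968) and cfim-2 (0.967). The deviations of the hmg-1.2 probe sets gave 0.925 (189434_s_at), 0.654 (175806_at) and 0.017 (175807_s_at), so they differed widely. Those of F47D12.9 gave 0.844 (176802_s_at) and 0.477 (173542_at). The values were 0.180 for gadr-3, 0.193 for C18F10.7, -0.562 for F47D12.3, -0.632 for C18F10.2 and -0.913 for F47D12.7. These correlations are over 12 arrays that share their array numbers, and on the mutant arrays F47D12.6 varied only near the bottom of the range.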

How the data were processed

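The authors deposited log2 expression values made with RMA in Partek 6.5, per the submitters' processing notes, for 12 arrays in 4 groups of 3, taken from the titles. Further RMA settings: not given in the sources used here. Array medians were 5.743 to 5.94, and the highest correlation between any 2 arrays was 0.9899, with 0 identical pairs. Control probe sets (77 of 22625) were left out. Names came from the platform annotation (1 symbol for 20810 probe sets, several for 843, none for 895) and gene order from RefSeq WBcel235.

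Limma 3.58.1 in R 4.3.3 (lmFit, eBayes, two-sided, Benjamini-Hochberg over 22548 probe sets, threshold 0.05) was fitted to 4 group means, with 8 residual and 2.24 prior degrees of freedom. The code was also run on simulated data with independent noise on each array. Same-numbered arrays were correlated in the real data, so the simulation does not show how the fit behaves on them. Because the labels name no separate cultures, a p-value here reflects the spread among these arrays alone, and that spread may be technical. The fit of array number had group as a term. The design also fitted the genotype difference in the heme response and the array-number contrast for the 8 genes. As the genes were chosen by genotype difference at each heme level and number, both are given without p-values. The heme responses within each genotype share arrays with those differences, so their p-values are a description. The counts of calls printed for the array-number contrast describe the choice. The members, lists and tests were chosen with earlier results of these data known. The rule for names took all probe sets of the 8 genes, the measured genes among the 15 on each side (nearest, and 3 largest each way), and 5 likest probe sets by each measure. Marker lists for sperm, oocyte and eggshell, vitellogenin, intestine, muscle, neuron and hypodermis were set. Deviations of same-numbered arrays correlated at r from 0.255 to 0.817 in the 12 array pairs from groups compared. In the other 6 array pairs r ran from 0.101 to 0.702. Numbers were therefore treated as pairs in an alternative fit, though the labels do not state pairing.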

Additional observations from a re-analysis of the deposited data

How the results depend on the processing

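For the 11 probe sets of the 8 genes, the replicate block (title number as a term) left 0 called in each heme comparison, with no call changed, while the count over all probe sets went from 15 to 35 for the average, from 8 to 15 in wildtype and from 9 to 18 in the mutant. Array weights called 1 of the 11 for the average heme response (1.30% of all probe sets), F47D12.3, and 2 in the mutant (4.45%), both of F47D12.9. Numbers 1 and 2 alone called 3 for the average and 3 in the mutant (14.0%). Over all probe sets those counts were 294 and 1910 for the average, 1004 and 3167 in the mutant, and 15 and 55 in wildtype. Without moderation 9, 3 and 4 probe sets were called for the average, wildtype and mutant, with only the groups compared 2 and 3 in wildtype and mutant, and with 1 array left out 10 to 62, 3 to 10 and 3 to 49. The highest were without mutant 4 µM replicate 3. Between array numbers the count over all probe sets, 6789 in the main fit, ran from 5706 to 6518 with 1 array left out. The 5 and 4 non-overlapping probe sets at 4 and 20 µM became 3 and 2 above the median mean, where F47D12.6 and gadr-3 are dropped, and 8 and 9 on numbers 1 and 2, where fewer arrays can overlap. With 1 array left out they ranged from 5 to 7 at 4 µM and from 4 to 7 at 20 µM, with 7 without wildtype replicate 3 of that heme level. No share of all probe sets is given under these alternative settings. Smaller groups separate more easily, so no excess among the 11 is read from these counts. Over the alternatives run, the genotype difference of F47D12.6 lay between -6.56 and -6.0 at 4 µM and between -6.37 and -6.06 at 20 µM, and that of F47D12.3 between 1.05 and 1.56. That of gadr-3 lay between -0.95 and -0.65 at 4 µM and between -1.35 and -0.86 at 20 µM, 175806_at of hmg-1.2 between -1.05 and -0.37 at 4 µM, and 176802_s_at of F47D12.9 between -1.47 and -0.45 at 4 µM. F47D12.7 ranged from -2.10 to -0.06 at 4 µM and from -2.54 to -0.66 at 20 µM. The mutant array medians differed from wildtype by -0.13 at 4 µM and 0 at 20 µM, which centring removes. No call on the heme response reversed.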

Other observations

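Other marker lists moved unequally between the arrays. On number 3 the 13 measured oocyte and eggshell genes shifted by a median of 0.83 in wildtype and 3.02 in the mutant at 4 µM, and by 0.86 and 1.22 at 20 µM. The 5 measured vitellogenins, yolk proteins made in the intestine, shifted by -1.23 and 4.78 at 4 µM and by 0.80 and 3.43 at 20 µM. The 8 intestinal markers shifted by -0.73 and -0.42, then -0.36 and -0.04, the 8 muscle markers by -0.42 and -0.40, then -0.26 and -0.07, the 8 neuronal markers by -0.25 and -0.66, then -0.41 and -0.25, and the 8 hypodermal markers by 0.12 and 0.01, then 0.48 and 0.34. Other than F47D12.7, 2 of the 353 probe sets raised on number 3 in wildtype averaged under 1 log2 unit in the mutant, Y105C5B.7 (0.73) and F48F5.2 (0.97), both named after their values were seen.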
